A study of Mus musculus with 5 samples.

Results

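The genes described here are named for the proteins of the mitochondrial ribosome. They were chosen by name, as the rows of the authors' gene table whose symbol is Mrpl or Mrps followed by a number and, in some, a letter. The rule found 76 of 23234 rows, 47 named for the large subunit and 29 named for the small subunit, and all 76 were among the 11876 genes that the authors tested. The table compares cortical cells of CD1 mouse embryos electroporated at E12.5 and collected at E15.5. The Ptf1a-misexpression group held 3 samples from cortices given a construct that carries Ptf1a together with GFP, and the GFP-only control group held 2 samples from cortices given GFP alone. Each sample was a pool of 3 to 6 brains, and in both groups GFP-positive cells were purified by fluorescence, so uptake of a construct defines the cells. The labels call them pyramidal cells of the embryonic cortex.

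Mitochondria keep a small genome whose messenger RNAs encode core subunits of the respiratory chain, and a dedicated ribosome translates them. That ribosome has a large subunit, which joins amino acids and releases the chain towards the inner membrane, and a small subunit, which binds the messenger RNA and reads its codons. Its proteins are all encoded in the nucleus and imported. Some descend from bacterial ribosomal proteins and others have no bacterial counterpart. In neurons and in dividing progenitors alike the ribosome is needed for oxidative phosphorylation. Ptf1a is a basic helix-loop-helix transcription factor that specifies inhibitory neurons in several parts of the nervous system and is not normally a factor of the cortex.

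Levels are the authors' FPKM (fragments scaled by transcript length and by library size), with 1 value per group, so no SD and no depth per sample can be given. A gene is said to have fallen or risen where the authors' deposited Cuffdiff q-value is under 0.05 over all tested genes, in Ptf1a misexpression relative to GFP-only controls. Log2 differences subtract the GFP-only value of log2(FPKM + 0.1) from the Ptf1a value. The standard error (SE) given with them is the deposited log2 fold divided by the deposited test statistic. It ranged from 0.147 to 0.384 over the 76 genes, with a median of 0.222. The deposited Cuffdiff p-values do not follow from that statistic under a normal distribution. Mrps36, for example, had a statistic of -1.13 and a deposited Cuffdiff p of 0.0117. A call therefore cannot be read from a log2 difference and its SE.

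Of the 76 genes, 36 fell (47.4%), 0 rose and 40 were not called by the Cuffdiff q-value. Among all tested genes 19.1% fell and 18.7% rose, but among tested genes in the same classes of abundance 45.3% fell and 6.56% rose. The fallen share of the mitochondrial ribosome was thus near that of equally abundant genes. At an unadjusted p under 0.05 the counts were 41 lower and 0 higher, against 23.3% and 22.7% of all tested genes. When p-values were instead taken from the deposited statistic under a normal distribution and adjusted over all tested genes, 11 were lower and 0 higher, against 2.79% and 3.29%. Without a test, 70 of the 76 lay below 0 (50.8% of all tested genes did). Set against the medians of their own classes of abundance, 41 of the 76 lay below. Of the 76, 7 were at least 1.5-fold lower (9.46% of all tested genes). All 7 of these had fallen, and 8.06% of all tested genes fell and 13.6% rose by at least that fold. At q under 0.01, 22 large and 9 small subunit genes were lower and 0 were higher, against 12.9% in each direction. Shares among equally abundant genes were worked out only for q under 0.05. The largest fall was 40.0%, in Mrpl33. The median log2 difference of the 76 genes was -0.24, against -0.01 for all tested genes, and it became 0.13 when each group was divided by its summed FPKM.

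That scaling matters for every direction given here. Over tested genes without small RNAs, the FPKM summed to 665048 in Ptf1a misexpression and 861951 in GFP-only controls. Dividing by these sums adds 0.37 to every log2 difference and puts the median of all tested genes at 0.37. The 76 genes held 1.51% of that sum in Ptf1a misexpression and 1.54% in GFP-only controls. Relative to the summed FPKM, 28 of the 76 genes remained below 0, and all 28 were among the 36 that fell on the authors' scale.

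**Figure D1:**
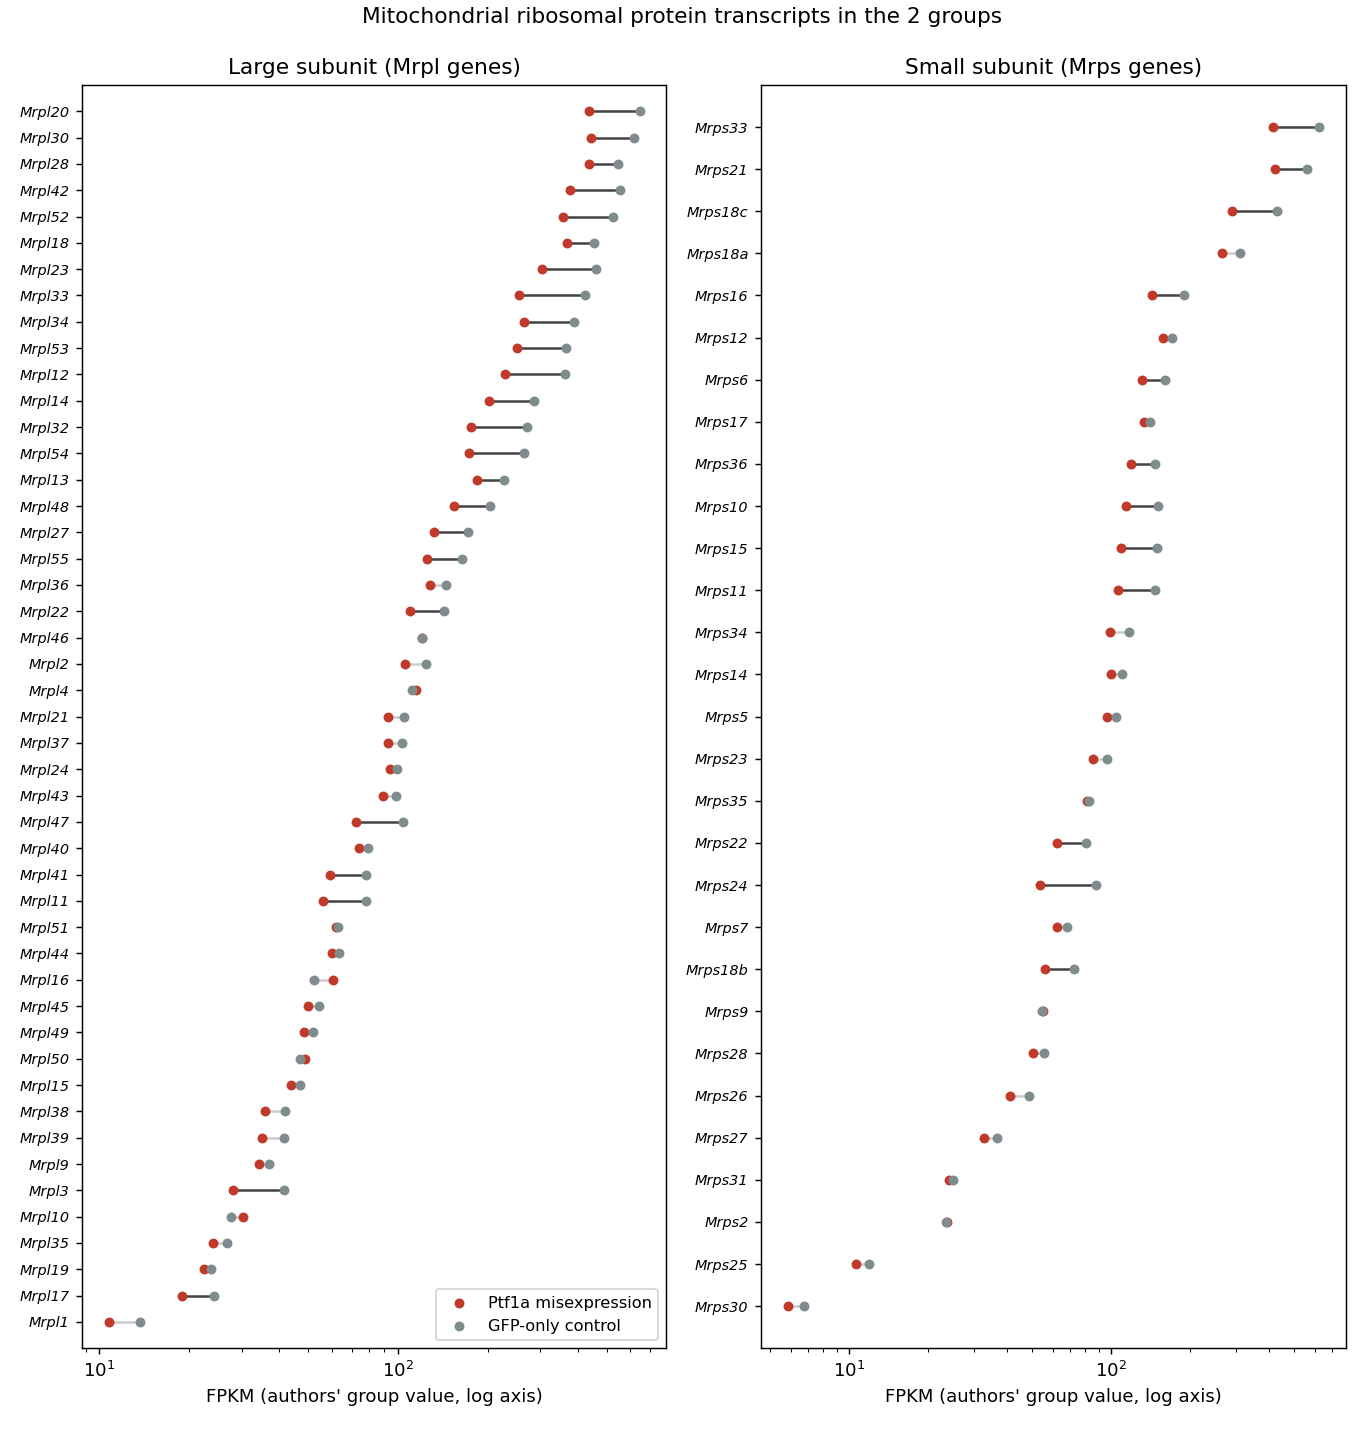
FPKM of each of the 76 genes on a log axis, with Ptf1a misexpression in red and the GFP-only control in grey, and genes ordered by mean FPKM within the large and the small subunit. Dark connecting lines mark the 36 genes that fell on the authors' scale, and pale lines mark genes that were not called; each point is a single group value without replicate error, and dividing by summed FPKM would leave 28 of the 76 below 0.

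Genes of equal abundance also fell often. All tested genes were ranked by mean log2(FPKM + 0.1) and divided into 10 deciles, and 41 of the 76 genes lay in the highest decile and 26 in the next. In the highest decile 58.8% of all tested genes fell and 3.45% rose, and 28 of the 41 mitochondrial ribosomal genes fell (68.3%). In the next decile 7 of 26 fell (26.9%), against 32.2% of tested genes, of which 9.1% rose. The 45.3% given above is the average over the deciles in which the 76 genes lay. Minus the median of its own decile, the median log2 difference was -0.04 over the 76 genes, -0.06 for the large subunit and -0.02 for the small subunit. No test of the list was made.

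**Figure D2:**
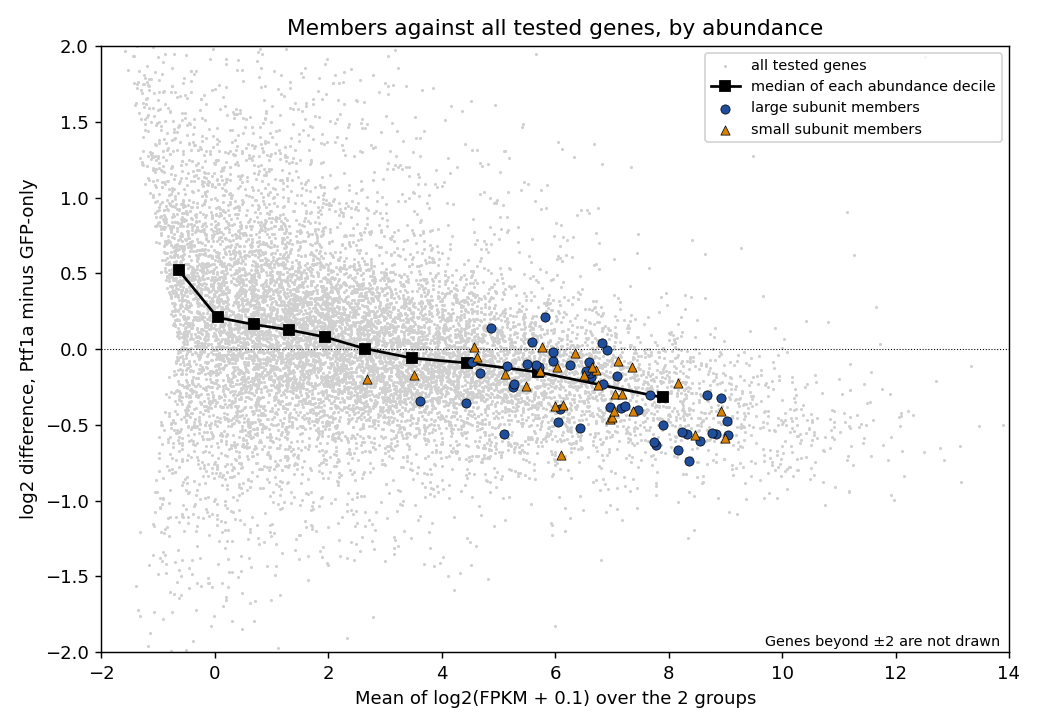
Log2 difference, Ptf1a misexpression minus GFP-only control, against mean log2(FPKM + 0.1), for all tested genes (grey), the 47 large subunit genes (blue circles) and the 29 small subunit genes (orange triangles), with a black line through the medians of the 10 abundance deciles (0.52 in the lowest, -0.32 in the highest). On the authors' scale the 41 mitochondrial ribosomal genes of the highest decile have a median of -0.39; dividing by summed FPKM would add 0.37 to every point and to the line.

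In the large subunit 24 of 47 genes fell (51.1%), against 45.9% of tested genes in the same deciles. The median log2 difference was -0.30, which became 0.07 when each group was divided by its summed FPKM. Its 12 largest falls lay between 30.3% and 40.0%. Mrpl33, a small protein of the bL33 family (chromosome 5, 31916324 to 31925017, mm9), stood at 253.8 FPKM in Ptf1a misexpression and 423 FPKM in GFP-only controls, a log2 difference of -0.74 (SE 0.166). The authors' deposited table gave it q = 0.000329, the smallest q of that table. The deposited p of 5e-05 behind it was shared by 1803 genes, 20 of the 76 among them, so the order of these genes by p carries no information.

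The stalk of the large subunit recruits translation factors, and 2 of its 3 genes fell (38.2% of tested genes did in the same deciles). Mrpl12, the copy of the bacterial L7/L12 protein that forms the flexible stalk (chromosome 11, 120345983 to 120350068, mm9), stood at 229 FPKM in Ptf1a misexpression and 364 FPKM in GFP-only controls. Its log2 difference was -0.67 (SE 0.189), and it fell. Mrpl11, at the base of the stalk, stood at 56.1 FPKM in Ptf1a misexpression and 78.2 FPKM in GFP-only controls and fell. Mrpl10, which anchors the Mrpl12 copies, had 30.3 FPKM in Ptf1a misexpression and 27.6 FPKM in GFP-only controls. It was not called (q = 0.416 in the authors' deposited table). The difference between Mrpl10 and Mrpl12 was not tested.

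Proteins around the exit of the peptide tunnel came next. Mrpl23 stood at 303 FPKM in Ptf1a misexpression and 462 FPKM in GFP-only controls, and Mrpl47, the counterpart of bacterial L29, at 72.5 FPKM in Ptf1a misexpression and 104 FPKM in GFP-only controls. Both fell, as did Mrpl22 (109.6 FPKM in Ptf1a misexpression, 143 FPKM in GFP-only controls). Mrpl24 (93.9 FPKM in Ptf1a misexpression, 99.5 FPKM in GFP-only controls) and Mrpl45, which holds the ribosome to the inner membrane (50.1 FPKM in Ptf1a misexpression, 54.5 FPKM in GFP-only controls), were not called. Of the 5 tunnel exit genes 3 thus fell, against 48.1% of tested genes in the same deciles, and their median log2 difference was -0.38 before and -0.06 after subtracting the decile medians.

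Of 6 genes of the central protuberance, the region that contacts transfer RNA and the small subunit, 3 fell, against 49.9% of tested genes in the same deciles. Mrpl18 stood at 369 FPKM in Ptf1a misexpression and 455 FPKM in GFP-only controls, and Mrpl27 at 132 FPKM in Ptf1a misexpression and 171 FPKM in GFP-only controls. Mrpl48 stood at 154 FPKM in Ptf1a misexpression and 203 FPKM in GFP-only controls. Mrpl38, Mrpl40 and Mrpl46 were not called, with log2 differences of -0.23, -0.10 and -0.01. Mrpl46 had 120.2 FPKM in Ptf1a misexpression and 120.8 FPKM in GFP-only controls.

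Other large subunit proteins with a bacterial counterpart gave the widest range. Mrpl32, whose precursor is trimmed by the m-AAA protease of the inner membrane, stood at 175 FPKM in Ptf1a misexpression and 271 FPKM in GFP-only controls (log2 difference -0.63, SE 0.196). Mrpl20, the most abundant of the 76 by mean FPKM, stood at 437 FPKM in Ptf1a misexpression and 647 FPKM in GFP-only controls. Mrpl30 (444 FPKM in Ptf1a misexpression, 617 FPKM in GFP-only controls) and Mrpl34 (263 FPKM in Ptf1a misexpression, 388 FPKM in GFP-only controls) also fell. Mrpl3, near the peptidyl transferase centre, fell from a much lower level, with 28.0 FPKM in Ptf1a misexpression against 41.4 FPKM in GFP-only controls (log2 difference -0.56, SE 0.252). Its fall was 0.41 below the median of its decile. Mrpl17, the second least abundant gene named for the large subunit, also fell, with 18.9 FPKM in Ptf1a misexpression and 24.2 FPKM in GFP-only controls. Mrpl13 (184 FPKM in Ptf1a misexpression, 227 FPKM in GFP-only controls), Mrpl28 (436 FPKM in Ptf1a misexpression, 545 FPKM in GFP-only controls), Mrpl14 and Mrpl55 fell too, by 18.9% to 29.3%. At the other end, Mrpl16, which lies beside the transfer RNA sites (chromosome 19, 11844905 to 11849436, mm9), had 60.7 FPKM in Ptf1a misexpression and 52.3 FPKM in GFP-only controls. Its log2 difference of 0.21 (SE 0.233) was the highest of the 76 and was not called. Mrpl4 stood at 115 FPKM in Ptf1a misexpression and 111 FPKM in GFP-only controls and was not called either. Mrpl1 (10.8 FPKM in Ptf1a misexpression, 13.7 FPKM in GFP-only controls) was the least abundant gene named for the large subunit. It missed the threshold with q = 0.0901 in the authors' deposited table. Mrpl2, Mrpl9, Mrpl15, Mrpl19, Mrpl21, Mrpl35 and Mrpl36 were not called, with log2 differences between -0.23 and -0.08.

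Among 17 large subunit genes with no bacterial counterpart 6 fell (35.3%, against 43.1% of tested genes in the same deciles). They were Mrpl54, Mrpl42, Mrpl52, Mrpl53, Mrpl48 and Mrpl41. Mrpl54 stood at 173 FPKM in Ptf1a misexpression and 264 FPKM in GFP-only controls (log2 difference -0.61, SE 0.180), and Mrpl42 at 376 FPKM in Ptf1a misexpression and 554 FPKM in GFP-only controls. Mrpl52 had 357 FPKM in Ptf1a misexpression and 524 FPKM in GFP-only controls. Mrpl53 had 249.8 FPKM in Ptf1a misexpression and 365 FPKM in GFP-only controls. Mrpl44, a relative of ribonuclease III, was not called with 60.2 FPKM in Ptf1a misexpression and 63.6 FPKM in GFP-only controls. Mrpl51 and Mrpl50 had log2 differences of -0.02 and 0.05. Mrpl39 (35.0 FPKM in Ptf1a misexpression, 41.5 FPKM in GFP-only controls) lay just outside the threshold, with q = 0.0859 in the authors' deposited table. Mrpl37, Mrpl43 and Mrpl49 were not called.

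In the small subunit 12 of 29 genes fell (41.4%), against 44.3% of tested genes in the same deciles. The median log2 difference was -0.22, which became 0.15 when each group was divided by its summed FPKM. Mrps24, the counterpart of bacterial S3 at the messenger RNA entry (chromosome 11, 5603986 to 5607702, mm9), had the largest fall of the small subunit. It had 53.7 FPKM in Ptf1a misexpression and 87.4 FPKM in GFP-only controls, a log2 difference of -0.70 (SE 0.225), and this was 0.55 below the median of its decile. No other of the 76 lay as far below its decile.

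Of 9 genes of the small subunit head, Mrps24, Mrps33 and Mrps10 fell (33.3%, against 39.2% of tested genes in the same deciles). Mrps33 stood at 414 FPKM in Ptf1a misexpression and 622 FPKM in GFP-only controls, and Mrps10 at 114 FPKM in Ptf1a misexpression and 151 FPKM in GFP-only controls. Mrps2, Mrps7, Mrps9, Mrps14, Mrps31 and Mrps35 were not called. Mrps2 had 23.8 FPKM in Ptf1a misexpression and 23.5 FPKM in GFP-only controls, and Mrps9 had 54.9 FPKM in Ptf1a misexpression and 54.4 FPKM in GFP-only controls. The head's median log2 difference of -0.11 became 0.04 after subtracting the decile medians and -0.019 after subtracting the medians of genes matched in both abundance and length.

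In the body and platform, Mrps21 stood at 422 FPKM in Ptf1a misexpression and 561 FPKM in GFP-only controls. Mrps16 (143 FPKM in Ptf1a misexpression, 190.0 FPKM in GFP-only controls), Mrps11 (107 FPKM in Ptf1a misexpression, 147 FPKM in GFP-only controls) and Mrps15 (109.8 FPKM in Ptf1a misexpression, 150.0 FPKM in GFP-only controls) were also among the fallen. Mrps22, of the mitochondria-specific proteins, had 62.2 FPKM in Ptf1a misexpression and 80.2 FPKM in GFP-only controls and fell. Mrps6 stood at 131 FPKM in Ptf1a misexpression and 161 FPKM in GFP-only controls, and Mrps36 at 119.8 FPKM in Ptf1a misexpression and 147 FPKM in GFP-only controls. They lay just inside the threshold, with q = 0.0310 and q = 0.0340 in the authors' deposited table, and Mrpl13 of the large subunit had q = 0.0195 there. Mrps36 is now known as a subunit of the oxoglutarate dehydrogenase complex and not as a part of the mammalian mitochondrial ribosome. Mrps12, which forms part of the decoding site, was not called at 158 FPKM in Ptf1a misexpression and 171 FPKM in GFP-only controls. Mrps25 and Mrps30 were the least abundant of the genes named for the small subunit, though Mrps30 belongs by structure to the large subunit. Mrps25 had 10.7 FPKM in Ptf1a misexpression and 11.99 FPKM in GFP-only controls, and Mrps30 had 5.86 FPKM in Ptf1a misexpression and 6.74 FPKM in GFP-only controls. Mrps5, Mrps17, Mrps23, Mrps26, Mrps27, Mrps28 and Mrps34 were not called, with log2 differences between -0.24 and -0.08.

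The 3 Mrps18 genes encode related proteins that occupy different places in the ribosome. Mrps18c stood at 289 FPKM in Ptf1a misexpression and 429 FPKM in GFP-only controls (log2 difference -0.57, SE 0.169), and Mrps18b at 55.9 FPKM in Ptf1a misexpression and 72.5 FPKM in GFP-only controls (-0.38, SE 0.230). Both fell. Mrps18a, which despite its name sits in the large subunit, stood at 266 FPKM in Ptf1a misexpression and 311 FPKM in GFP-only controls (-0.22, SE 0.188). It lay just outside the threshold with q = 0.0755 in the authors' deposited table. With Mrps18a and Mrps30 counted by structure in the large subunit and Mrps36 in neither, 24 of 49 large (49.0%) and 11 of 26 small subunit genes (42.3%) fell. In the same deciles 45.5% and 44.3% of tested genes fell. Whether the 2 subunits differ was not tested, since only 1 value per group was at hand.

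Proteins with a bacterial counterpart fell more often than the others by count, 27 of 48 (56.3%) against 9 of 28 (32.1%). The 2 classes also differed in abundance, with a median mean level of 126 FPKM and 74.0 FPKM. In the same deciles 48.2% and 40.3% of tested genes fell. After subtracting the decile medians the median log2 differences were -0.06 and -0.02, and the difference between the classes was not tested.

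Within the family, abundance and transcript length moved with the size of the difference. Across the 76 genes, Spearman's rho was -0.58 between abundance and log2 difference, 0.49 between transcript length and log2 difference, and -0.67 between length and abundance. These describe genes that share the same libraries, and all tested genes gave -0.38, 0.22 and -0.39 over 11193 genes. Of the 25 most abundant members, with 144.7 FPKM or more on average, 23 fell (92.0%), against 58.8% of tested genes in their decile and 67.1% of tested genes matched in both abundance and length. Their median log2 difference was -0.50, and -0.09 after subtracting the median of genes matched in both. Of the 26 least abundant, 3 fell (11.5%), against 28.5% in their deciles and 26.5% with both matched. In the highest decile, genes in the shortest of 5 length classes (median transcript up to 1030.5 bases) fell in 70.8%, and 30 of the 41 members there belonged to that class, of which 22 fell. The part of transcript length in these differences was not tested.

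**Figure D3:**
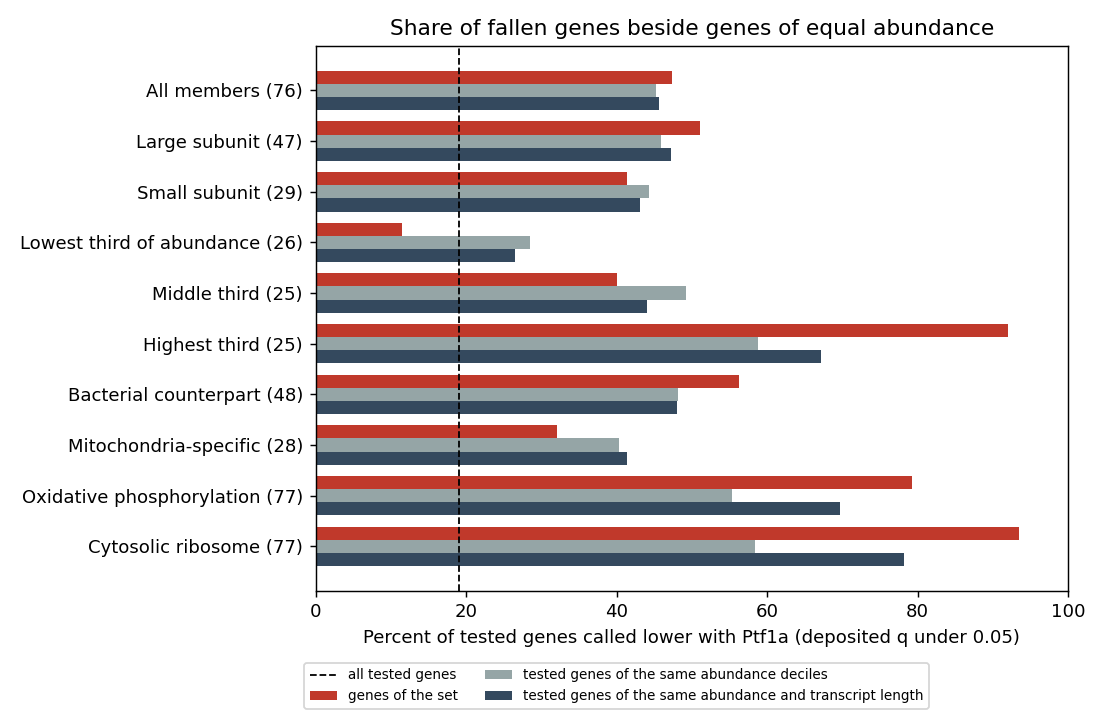
Percent of tested genes that fell in each set (red), beside tested genes of the same abundance deciles (grey) and of the same abundance and transcript length (dark blue), with the number of tested genes in parentheses and the 19.1% of all tested genes as a dashed line. The 76 members fell in 47.4%, near the 45.3% of their deciles, and the 25 most abundant members (92.0%) stand above their matched genes while the 26 least abundant (11.5%) lie below them; calls are on the authors' scale, and dividing by summed FPKM adds 0.37 to every log2 difference.

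The markers of the labelled cell type were present, and markers of cell state differed between the groups. Of 9 pyramidal neuron genes 7 fell and 1 rose (in their deciles 25.2% of tested genes fell and 13.6% rose), and their summed level was 1316 FPKM in Ptf1a misexpression and 1886 FPKM in GFP-only controls. Of 9 progenitor and cell cycle genes all 9 rose (16.0% of tested genes did in their deciles), with sums of 402 FPKM in Ptf1a misexpression and 169.5 FPKM in GFP-only controls. Red blood cell genes (2 of 5 tested fell, against 18.8% in their deciles) summed to 60.8 FPKM in Ptf1a misexpression and 141 FPKM in GFP-only controls. Microglial genes summed to 9.24 FPKM in Ptf1a misexpression and 14.6 FPKM in GFP-only controls, vascular genes to 7.14 FPKM in Ptf1a misexpression and 3.65 FPKM in GFP-only controls, and meningeal genes to 2.42 FPKM in Ptf1a misexpression and 3.95 FPKM in GFP-only controls. No marker in the table was at 0 in either group. In pooled cells, a smaller share of a cell type and less RNA per cell cannot be told apart, and the part of these shifts in the values of the mitochondrial ribosome was not tested.

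The remaining structural proteins of the mitochondrial ribosome carry other names. Of 7 such genes 4 fell, against 41.2% of tested genes in the same deciles. Chchd1 (425 FPKM in Ptf1a misexpression, 723 FPKM in GFP-only controls; log2 difference -0.77) and Mrp63 (24.9 FPKM in Ptf1a misexpression, 37.3 FPKM in GFP-only controls) fell most. Ict1, which can also release peptides from stalled ribosomes, stood at 251 FPKM in Ptf1a misexpression and 344 FPKM in GFP-only controls. Dap3, a GTP-binding protein of the head chosen after its value was seen, also fell, with 44.6 FPKM in Ptf1a misexpression and 60.4 FPKM in GFP-only controls. Aurkaip1, Gadd45gip1 and Ptcd3 were not called. With these 7 added to the members, 40 of 83 genes fell (48.2%, against 44.9% in the same deciles) and 0 rose (against 6.64%). The 83 include Mrps36, which fell and is not a structural protein of this ribosome. At an unadjusted p under 0.05, 45 were lower and 0 higher, against 23.3% and 22.7% of all tested genes. From the normal p 12 were lower and 0 higher, against 2.79% and 3.29%.

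Genes that build and serve the ribosome were mostly not called. Of 24 assembly and rRNA modification factors 3 fell and 0 rose (in the same deciles 20.3% of tested genes fell and 15.1% rose). At an unadjusted p under 0.05, 7 were lower and 1 higher, against 23.3% and 22.7% of all tested genes. From the normal p 1 was lower and 0 higher, against 2.79% and 3.29%. The same shares of all tested genes apply to the lists that follow. Rbfa, which matures the small subunit RNA, had 24.4 FPKM in Ptf1a misexpression and 44.2 FPKM in GFP-only controls, a log2 difference of -0.86. The GTPase Noa1 stood at 4.87 FPKM in Ptf1a misexpression and 6.68 FPKM in GFP-only controls, and Mtg1 fell too, with 26.7 FPKM in Ptf1a misexpression and 35.4 FPKM in GFP-only controls (chosen after its value was seen). Mpv17l2 (58.5 FPKM in Ptf1a misexpression, 57.8 FPKM in GFP-only controls) and Ngrn (51.7 FPKM in Ptf1a misexpression, 61.1 FPKM in GFP-only controls), the most abundant, were not called.

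Among 13 tested genes of mitochondrial translation, 2 fell (15.4%, against 18.0% in the same deciles) and 0 rose (against 17.8%). Lrpprc and Oxa1l, which are not translation factors themselves, are in this list. The counts were also 2 and 0 at an unadjusted p under 0.05, and 0 and 0 from the normal p. Mtrf1l, a release factor, had 0.387 FPKM in Ptf1a misexpression and 0.914 FPKM in GFP-only controls. The initiation factor Mtif3 had 10.6 FPKM in Ptf1a misexpression and 15.54 FPKM in GFP-only controls. The elongation factors Tufm (90.4 FPKM in Ptf1a misexpression, 98.5 FPKM in GFP-only controls) and Tsfm (76.4 FPKM in Ptf1a misexpression, 81.7 FPKM in GFP-only controls) were not called.

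Of 17 tested genes that charge or formylate mitochondrial transfer RNA, 4 fell (23.5%, against 14.1% in the same deciles) and 0 rose (against 19.6%). At an unadjusted p under 0.05 the counts were 4 and 0, and from the normal p 0 and 0. Yars2, the tyrosine enzyme, had the largest fall, with 1.25 FPKM in Ptf1a misexpression and 3.03 FPKM in GFP-only controls (log2 difference -1.21). Pars2, the proline enzyme, had 2.43 FPKM in Ptf1a misexpression and 3.84 FPKM in GFP-only controls. Tars2 and Mars2, chosen after their values were seen, also fell. Fars2 (38.9 FPKM in Ptf1a misexpression, 43.9 FPKM in GFP-only controls) and Rars2 (23.5 FPKM in Ptf1a misexpression, 22.9 FPKM in GFP-only controls), the most abundant, were not called. Lars2 was listed at 0 in both groups and was marked as having too much data, so its level is unknown. Another list held 11 tested genes of mitochondrial DNA replication, transcription and RNA processing. Of these, 0 were called in either direction (in the same deciles 13.9% of tested genes fell and 19.8% rose). At an unadjusted p under 0.05, 0 passed, and 0 passed by the normal p. The most abundant were Ssbp1, which binds single-stranded DNA (40.3 FPKM in Ptf1a misexpression, 47.9 FPKM in GFP-only controls), and Tfb2m, a transcription factor (14.8 FPKM in Ptf1a misexpression, 16.0 FPKM in GFP-only controls). The products of the mitochondrial genome itself were not analysed here.

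Related gene groups were set beside the mitochondrial ribosome. Cytosolic ribosomal protein genes fell in 72 of 77 (93.5%, against 58.4% in the same deciles and 78.2% when matched in both abundance and length). Nuclear oxidative phosphorylation genes fell in 61 of 77 (79.2%, against 55.4% and 69.6%). The background shares include the genes of these sets themselves and were not recomputed for them without those genes. Minus the decile medians, the median log2 difference was -0.26 for the cytosolic ribosome, -0.11 for oxidative phosphorylation and -0.04 for the mitochondrial ribosome. Minus the median of genes matched in both abundance and length, it was -0.13, -0.0097 and -0.033 in the same order. The order of the last 2 groups thus turned with the matching. Matching in both also used finer classes of abundance than the deciles, so changes from the decile values cannot be credited to length alone. The 3 groups also differed in abundance, with a median mean level of 1679, 603 and 99.7 FPKM, and the differences between them were not tested.

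Some mitochondrial ribosomal genes share a start region with a gene read in the opposite direction. Their values can be set beside those of that immediate neighbour. RefSeq starts on GRCm38.p6 were at hand for 67 of the 76 genes. Of these, 20 had the start of a divergent gene within 250 bases, in 19 pairs, and both genes were tested in 18. In 2 pairs both genes fell, in 4 the mitochondrial ribosomal gene fell and its neighbour was not called, and in 8 neither was called. In 1 the mitochondrial ribosomal gene fell and its neighbour rose. Where only the neighbour was called, it fell in 2 and rose in 1. The pair of Mrpl46 and Mrps11, both members, is counted here with Mrps11 as the fallen neighbour. Among all tested genes 19.1% fell and 18.7% rose, and pairs of other genes were not counted. The bases between the starts of 3 pairs, chosen after their values were seen, are printed here on the strand of the first gene and 5′ to 3′. They show a pair called in opposite directions, the pair made of 2 members, and the pair of abundant genes that both fell. Capitals mark matches to the motifs named further on.
Mrpl27 and Eme1, chr11:94653744-94653790 (plus strand): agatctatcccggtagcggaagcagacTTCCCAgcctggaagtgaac
Mrps11 and Mrpl46, chr7:78783090-78783130 (plus strand): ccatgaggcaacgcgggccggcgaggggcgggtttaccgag
Mrpl32 and Psma2, chr13:14613038-14613241 (minus strand): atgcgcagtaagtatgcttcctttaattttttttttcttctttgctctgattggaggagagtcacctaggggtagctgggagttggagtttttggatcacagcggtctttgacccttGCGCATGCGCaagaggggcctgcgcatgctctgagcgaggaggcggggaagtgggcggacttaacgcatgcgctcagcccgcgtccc

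The 47 bases between Mrpl27 and Eme1 separate genes that were called in opposite directions. Eme1, a subunit of a DNA repair nuclease, had 6.26 FPKM in Ptf1a misexpression and 3.17 FPKM in GFP-only controls and rose (q = 0.0356 in the authors' deposited table), while Mrpl27 fell as given before. These genes differ widely in abundance. In the abundance decile of Eme1 20.3% of tested genes rose and 11.5% fell, against 3.45% and 58.8% in that of Mrpl27. Several other neighbours were also far less abundant than their member, and the part of abundance in these pairs was not tested. The 41 bases between Mrps11 and Mrpl46 separate a member that fell (Mrps11, log2 difference -0.46, SE 0.205) from one that was not called (Mrpl46, -0.01, SE 0.207) at nearly equal abundance. The difference between the 2 was not tested. Mrpl32 and the proteasome gene Psma2 lie 204 bases apart and both fell, Psma2 with 519 FPKM in Ptf1a misexpression and 732 FPKM in GFP-only controls. Mrpl55 and the unnamed model 2610507I01Rik also fell together. Mrpl50 was not called beside Zfp189, which rose with 1.83 FPKM in Ptf1a misexpression and 1.07 FPKM in GFP-only controls. Mrpl49 was not called beside Fau, a cytosolic ribosomal protein gene that fell.

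**Figure D4:**
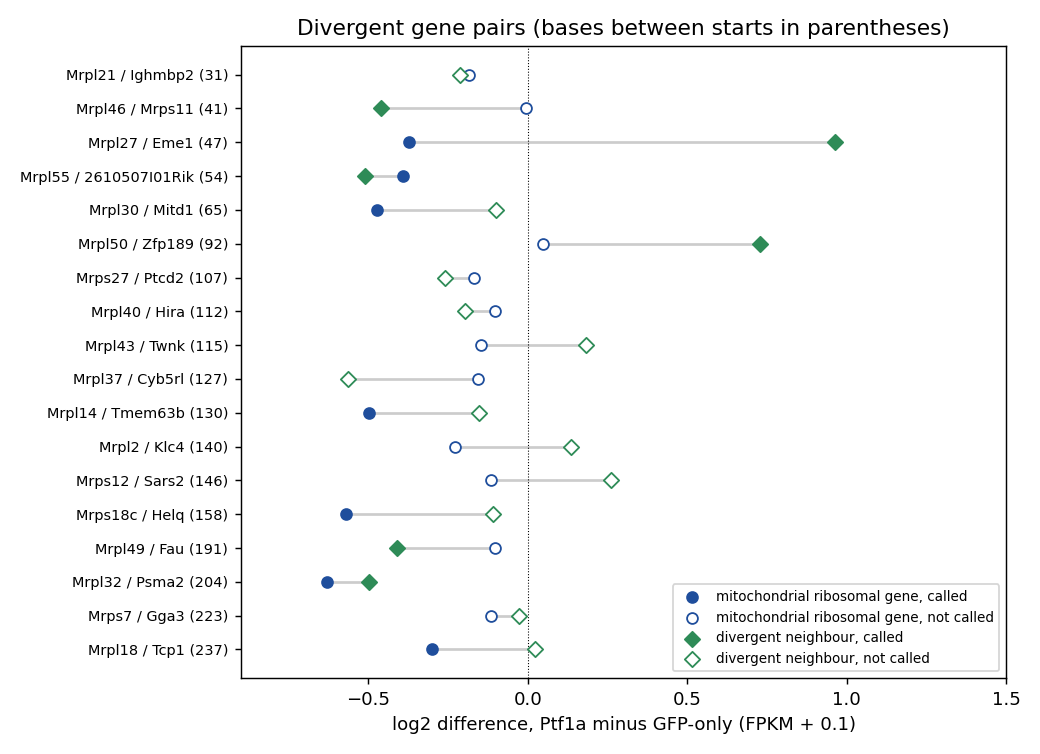
Log2 difference, Ptf1a misexpression minus GFP-only control, of each mitochondrial ribosomal gene (blue circles) and its divergent neighbour (green diamonds) in the 18 pairs with both genes tested, ordered by the bases between their starts. Filled symbols were called by the authors' q-value, Mrps11 beside Mrpl46 is itself a mitochondrial ribosomal gene, the pair of Mrpl27 (-0.37) and Eme1 (0.96) is the widest, and the pair of Mrpl32 (-0.63) and Psma2 (-0.50) lies below 0 for both genes on the authors' scale, to which dividing by summed FPKM adds 0.37.

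Motif letters were searched on both strands in windows of 250 bases before to 50 bases after each RefSeq start, for members and for all 27025 genes with a window. The ETS core CCGGAAG was in 24 of 67 members (35.8%), against 9.93% of all genes and 20.4% of tested genes. The NRF1 motif was in 12 members (17.9%), against 5.19% of all genes and 12.05% of tested genes, and the YY1 motif AANATGGCG in 10 (14.9%), against 2.76% and 6.19%. The E-box CAGCTG, of the kind that Ptf1a binds with its partners, was in 10 members (14.9%), against 18.3% of all genes and 17.8% of tested genes. The Rbpj core TGGGAA was in 19 members (28.4%), against 28.3% and 26.7%. Among 34 fallen members and 33 uncalled members with a window, the ETS core was in 16 and 8 and the NRF1 motif in 6 and 6. The YY1 motif was in 4 and 6, the E-box in 4 and 6, and the Rbpj core in 10 and 9. A match describes letters in a window, and these shares were not tested. No motif share was worked out among genes of equal abundance. In the Mrpl32 and Psma2 sequence above, the capitals are an NRF1 match, and in that of Mrpl27 and Eme1 they are the Rbpj core on the opposite strand.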

How the data were processed

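Amplification started from 2.1 to 7.8 ng of RNA, and libraries were sequenced as paired reads of 50 bases, per the labels' protocols. The authors' tools were Cufflinks 2.1.1, TopHat2 2.0.8 and CASAVA 1.8.2, with mm9 as the genome, per the submitters' processing notes, which also list Cuffdiff. Its version, the annotation and the parameters are not given in the sources used here. The deposited FPKM values are 1 per group, per the file headers, with the authors' log2 fold, a signed test score, and p-values and q-values. The column headed PIG was read as the Ptf1a construct, since the other is headed GFP. How reads shared with processed pseudogenes were assigned is not given. Depth per sample is unknown.

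A gene was called where the deposited q-value is below 0.05, identical to the authors' significance column throughout. Log2 differences use a pseudocount of 0.1. Background shares come from deciles of abundance, and from 20 abundance by 5 length classes with GENCODE M21 transcript lengths matched by symbol for 94.2% of tested genes. Python 3.11.15 with pandas 2.3.3 and scipy 1.17.1 was used, tested on simulated data. Locus starts were raised by 1, because the loci of 28 members then have the length of the RefSeq gene, and that of 1 otherwise. Genes given in full are the fallen ones with the largest folds (up to 12 per subunit), the 3 most and 2 least abundant per subunit, the 3 nearest the threshold on each side and the Mrps18 genes; in other lists, up to 2 called genes per direction and the 2 most abundant. Other members given with values were chosen after their values were seen. The members and lists were chosen with earlier results of these data known.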

Additional observations from a re-analysis of the deposited data

How the results depend on the processing

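The counts of fallen genes depended on the source of the p-value and on a fold minimum. From the normal p of the deposited test statistic 9 large and 2 small subunit genes fell in place of 24 and 12, and with at least 1.5-fold 5 and 2 fell. No member rose under any of the 7 alternatives run for the counts. A q under 0.01 gave 22 and 9, an unadjusted p under 0.05 gave 27 and 14, and leaving out genes that share a locus with another row (9 members, of which Mrpl41, Mrpl48, Mrpl53 and Mrps6 had fallen) gave 21 and 11. Centred on abundance deciles, the median log2 differences moved to -0.064 (large subunit), -0.016 (small subunit) and -0.038 (all members). With each group divided by its summed FPKM, an alternative chosen after seeing the data, they reversed to 0.073, 0.15 and 0.13, as the added constant makes them. Pseudocounts of 0.01 and 1 and a minimum of 5 FPKM moved no median by 0.1. The median minus the abundance bins has no value centred on all genes, as it is already centred. The share of tested genes of equal abundance that fell was 42.5% with 5 bins, 44.2% with 20 bins, 45.6% with length matched too and 42.6% without the members, cytosolic ribosomal and oxidative phosphorylation genes, all chosen after seeing the data. Leaving out a sample was not possible with 1 value per group. No paired analysis was possible because the table holds no value per sample.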
